A study of Homo sapiens with 8 samples.

Results

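The genes described here are the NRF2 targets and the genes of xenobiotic metabolism, 35 genes chosen by symbol from known function. Earlier results of these data were known when the list was made. The genes were found in 2 expression tables of 48405 rows each. Each gene was taken from the row whose gene field names it and, where several rows did, from the row with the highest mean over the 8 libraries. HCC4006 and HCC827 are lines grown from human lung adenocarcinomas whose EGFR carries an activating mutation, and polyadenylated RNA of both was measured. The 4 groups were HCC4006 resistant to gefitinib, HCC4006 kept in DMSO, HCC827 resistant to gefitinib and HCC827 kept in DMSO, with 2 libraries each. Gefitinib inhibits the EGFR kinase, DMSO is its solvent, and a culture counted as resistant once it could be grown routinely in medium with 3 µM of the drug. The growth text common to all libraries also names BIBW2992, another EGFR inhibitor, for resistant populations, while the treatment labels of these libraries give gefitinib. All cultures shared serum-containing RPMI medium, and the resistant ones were populations adapted to the drug rather than named clones. The labels do not state whether the paired libraries in each group were grown apart, so p-values measure only the spread between these libraries, which may be technical.

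NRF2, encoded by NFE2L2, is a transcription factor that KEAP1 holds in the cytoplasm and delivers for degradation. Oxidants and electrophiles modify KEAP1, and NRF2 then binds antioxidant response elements and turns on genes for glutathione and thioredoxin reduction, NADPH supply and conjugation of reactive compounds. The aryl hydrocarbon receptor, AHR, binds planar aromatic ligands and turns on CYP1 genes through xenobiotic response elements. Phase I enzymes such as the cytochromes P450 oxidise a compound, and phase II enzymes such as glutathione S-transferases and sulfotransferases conjugate it. In lung adenocarcinoma, loss of KEAP1 or mutation of NFE2L2 is a known route to constant NRF2 activity.

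The question for these genes was whether they differed between resistant and DMSO cultures within each line, and whether the lines differed in that change. Values are FPKM, which divides a gene's fragments by its transcript length and by the library's mapped fragments, so they are per length and can be set side by side between genes. A change is the resistant mean less the DMSO mean of log2(FPKM + 0.5), which understates the change of low genes, from limma across all rows with a mean of at least 0.5 FPKM, and a gene was called at a Benjamini-Hochberg adjusted p below 0.05 over all of those rows. The letters A and B name the columns of a group, and A is given first throughout. The depth of the libraries is unknown. In bulk RNA, fewer cells that express a gene and less RNA per cell cannot be told apart.

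The libraries had 17406 to 19333 rows above 0, a count that does not give their depth. Of the 6 epithelial markers, 5 were above 0 in all 8 libraries. The row taken for KRT18 also names AC108867.2, lies at chr4:136292331-136293079 and was listed at 0.878 FPKM or less. That row may not give the level of the KRT18 gene. In HCC4006, EPCAM was at 183 and 113 FPKM in resistant libraries, against 1529 and 2003 FPKM in DMSO libraries. CDH1 was at 3.03 and 3.29 FPKM in resistant HCC4006, against 1518 and 945 FPKM in DMSO. All 5 were lower in both resistant HCC4006 libraries, and the summed epithelial level was 1802 and 1629 FPKM there, against 9503 and 15845 FPKM in DMSO. In HCC827 the sum was 10502 and 17492 FPKM in resistant libraries, against 16039 and 15137 FPKM in DMSO. The part of this shift in the changes of HCC4006 was not tested. PTPRC, CD3E and CDH5, which mark blood and endothelial cells, were listed at 0 in all 8 libraries. CD68, which macrophages and many other cells express, lay between 264 and 1122 FPKM, with the highest value in HCC4006 DMSO library A. Among fibroblast markers COL1A1 lay between 13.4 and 120 FPKM, while DCN, LUM and COL1A2 stayed at 1.82 FPKM or less.

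For 27 of the 35 genes a promoter sequence was at hand, from RefSeq on GRCh38.p14. HMOX1, GSR, AKR1B10, ALDH3A1, CYP1B1, CYP24A1, POR and SULT1A1 were not in that table. The 250 bases before each transcription start were searched on both strands for the antioxidant response element core TGACNNNGC and the xenobiotic response element core GCGTG. The first was found in 7 of 27 genes (25.9%), which were GCLM, GPX2, GSTP1, ME1, PGD, SULT1C2 and TXNRD1, against 3013 of 27305 promoters in the table (11%). The second was found in 11 of 27 genes (40.7%), against 8712 of 27305 promoters (31.9%). Those 11 were AHRR, AKR1B1, CYP1A1, GCLC, GCLM, GSTM3, ME1, NFE2L2, PGD, TIPARP and TXN. In GSTP1 and ME1 the antioxidant core overlaps TGACTCA, the recognition site of AP-1. A match is a description of these letters and not a bound site. The 4 sequences that follow carry the antioxidant core in capitals and are shown because SULT1C2 was called in resistant HCC827, TXNRD1 and GSTP1 had the highest mean of their classes over the 8 libraries, and GCLM had opposite signs of change in the lines.
SULT1C2 promoter, plus strand, chr2:108288645-108288894: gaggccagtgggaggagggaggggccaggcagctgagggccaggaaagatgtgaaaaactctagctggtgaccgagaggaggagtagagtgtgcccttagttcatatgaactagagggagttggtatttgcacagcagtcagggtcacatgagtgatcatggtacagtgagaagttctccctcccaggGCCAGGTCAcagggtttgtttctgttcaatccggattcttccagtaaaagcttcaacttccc
TXNRD1 promoter, plus strand, chr12:104215529-104215778: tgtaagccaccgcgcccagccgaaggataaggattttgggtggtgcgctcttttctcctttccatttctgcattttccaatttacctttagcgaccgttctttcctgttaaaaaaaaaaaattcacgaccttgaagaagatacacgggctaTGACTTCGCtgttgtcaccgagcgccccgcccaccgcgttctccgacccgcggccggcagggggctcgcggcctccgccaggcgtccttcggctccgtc
GCLM promoter, minus strand, chr1:93909431-93909680: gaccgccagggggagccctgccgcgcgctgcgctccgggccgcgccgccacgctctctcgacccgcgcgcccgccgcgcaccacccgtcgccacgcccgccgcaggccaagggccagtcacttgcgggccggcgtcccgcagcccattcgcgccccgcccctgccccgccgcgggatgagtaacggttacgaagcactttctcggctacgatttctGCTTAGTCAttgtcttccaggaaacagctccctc
GSTP1 promoter, plus strand, chr11:67583562-67583811: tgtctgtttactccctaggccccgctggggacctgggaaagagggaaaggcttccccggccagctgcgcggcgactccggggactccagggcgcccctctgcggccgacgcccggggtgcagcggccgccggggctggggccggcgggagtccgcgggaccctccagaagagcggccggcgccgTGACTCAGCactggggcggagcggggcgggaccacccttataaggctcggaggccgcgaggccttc
The next pair carries the xenobiotic core in capitals and is shown because CYP1A1 and TIPARP are established AHR targets with higher values in both resistant HCC827 libraries. The pair was picked with those values known. Of the other genes with this core, GCLC, GCLM, ME1, PGD and TXN had negative estimates in HCC827. AKR1B1, GSTM3 and NFE2L2 had positive ones, GSTM3 against DMSO libraries listed at 0, and AHRR was listed at 0 throughout.
CYP1A1 promoter, minus strand, chr15:74725529-74725778: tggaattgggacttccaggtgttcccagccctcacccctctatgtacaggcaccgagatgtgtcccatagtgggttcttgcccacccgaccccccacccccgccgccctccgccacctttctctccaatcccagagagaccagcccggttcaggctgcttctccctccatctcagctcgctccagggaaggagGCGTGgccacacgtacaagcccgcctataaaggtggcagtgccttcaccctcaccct
TIPARP promoter, plus strand, chr3:156674340-156674589: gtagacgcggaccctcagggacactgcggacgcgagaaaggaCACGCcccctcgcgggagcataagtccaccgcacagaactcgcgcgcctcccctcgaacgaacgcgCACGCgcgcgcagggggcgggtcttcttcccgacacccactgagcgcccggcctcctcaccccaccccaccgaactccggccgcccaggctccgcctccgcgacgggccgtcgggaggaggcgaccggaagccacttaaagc

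Few of the genes passed the test between resistant and DMSO cultures. Of the 35 genes, 34 passed the filter on low values. AHRR, the repressor of AHR, was listed at 0 in all 8 libraries, on a row that also names PDCD6. In HCC4006, 2 of 34 genes (5.88%) were called higher in resistant cultures, CYP1B1 and AKR1C3, and 0 lower, against 6.72% of all 20685 rows called higher and 3.76% called lower. At an unadjusted p below 0.05, 3 of the genes were higher and 3 lower in that line, 17.6% of the 34, against 4404 rows (21.3%). In HCC827, 3 of 34 genes (8.82%) were called higher, CYP1B1, GSTM3 and SULT1C2, and 0 lower, against 5.93% of rows called higher and 2.61% called lower. At an unadjusted p below 0.05, 7 were higher and 1, GCLM, was lower, 23.5% of the 34, against 4249 rows (20.5%). The shares of genes called therefore lay near those of all rows.

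Several of these calls rest on a group listed at 0, which in this kind of table can be a failed estimate. Genes that every cell uses are also listed at 0, among them SQSTM1 in all 8 libraries, FTH1 in 6 and PRDX1 in 4. CYP1B1 and GSTM3 in HCC827 and AKR1C3 in HCC4006 were listed at 0 in both DMSO libraries. Among genes above 0 in the 4 libraries of a line, 1 of 29 was called in HCC4006 (3.45%), CYP1B1, against 1.35% of such rows called higher and 2.87% lower. In HCC827 it was 1 of 29 (3.45%), SULT1C2, against 1.21% called higher and 1.58% lower. When rows were required to be above 0 in all 8 libraries, limma called 0 of 26 genes in either line, against 0.307% of such rows called higher and 1.39% lower in HCC4006 and 0.225% and 0.239% in HCC827. At an unadjusted p below 0.05 these were 2 genes in HCC4006 (7.69%) and 6 in HCC827 (23.1%), against 15.1% and 15.3% of such rows. The genes called within a line, CYP1B1, SULT1C2, AKR1C3 and GSTM3, each have a library at 0 and were not among the 26, so this filter removed them without testing them. The median change of the 29 genes was -0.10 in HCC4006 and -0.04 in HCC827 on the log2 scale, against -0.04 and -0.10 over all rows above 0 in each line. Of the 29 genes, 26 in HCC4006 and 23 in HCC827 had an estimated change within 2-fold in either direction, with a median SE of 0.474 on the log2 scale.

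**Figure D1:**
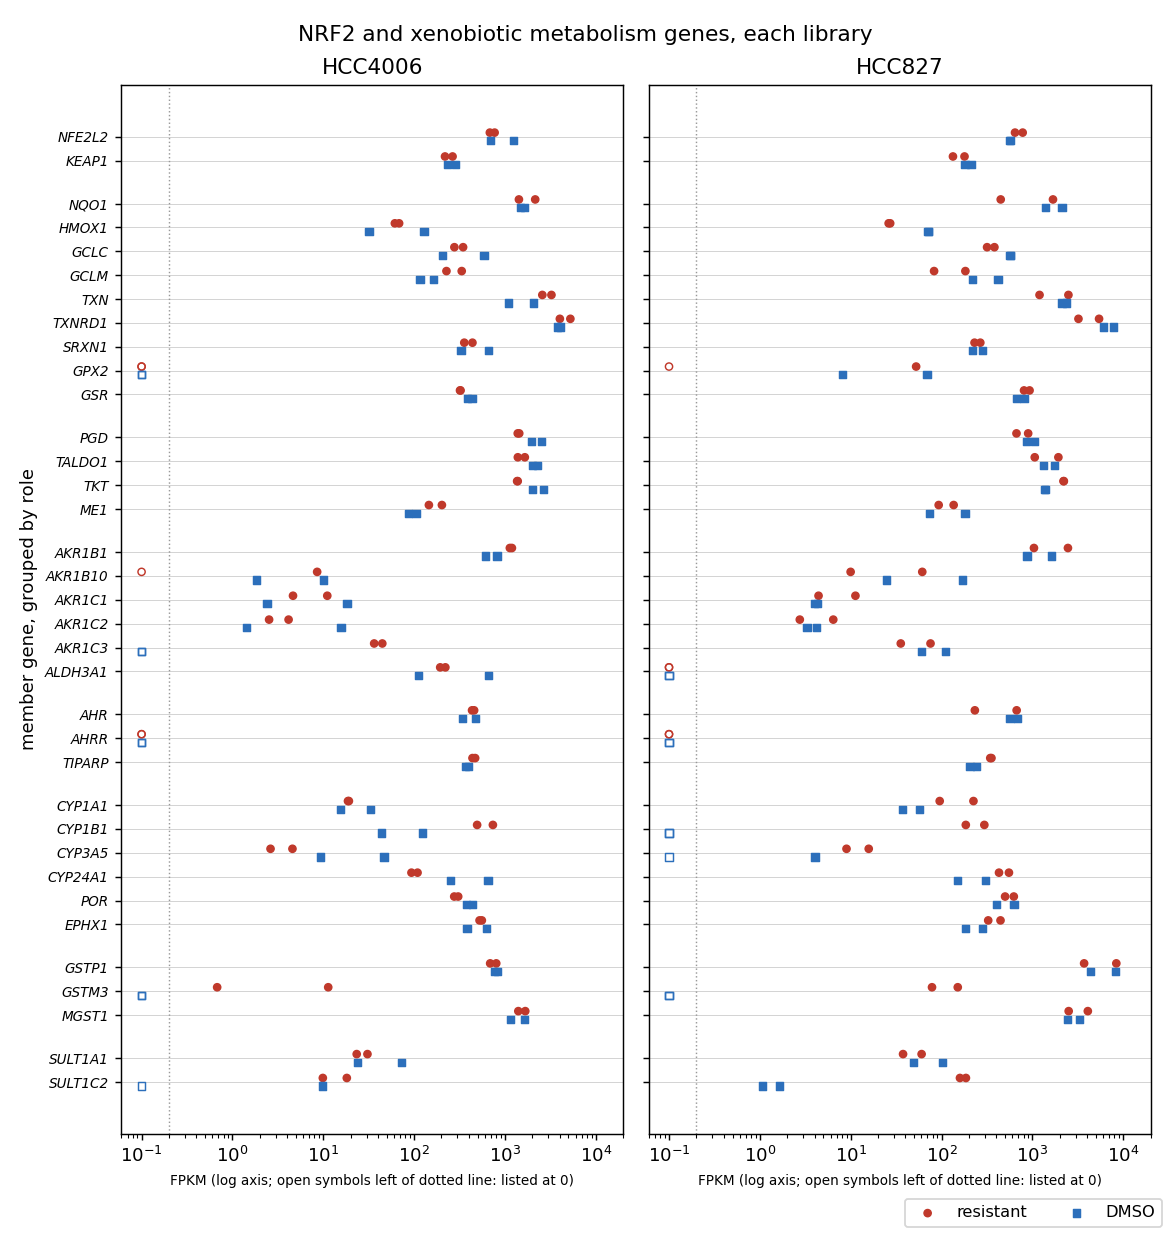
FPKM of each of the 35 genes in each library (log axis), grouped by role, with HCC4006 on the left and HCC827 on the right, resistant libraries as circles and DMSO libraries as squares. Open symbols left of the dotted line are listed at 0 and drawn at an arbitrary place, so a gap to them has no measured size. Both DMSO squares are open for AKR1C3 and GSTM3 in HCC4006 and for CYP1B1 and GSTM3 in HCC827. Among genes above 0 in every library of a line, the widest gaps are those of CYP1B1 in HCC4006 and SULT1C2 in HCC827.

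Neither the transcript of NRF2 nor that of its inhibitor was called. NFE2L2 had 771 and 683 FPKM in resistant HCC4006, against 1255 and 691 FPKM in DMSO. In HCC827 it had 783 and 645 FPKM in resistant libraries, against 580.2 and 564 FPKM in DMSO. The HCC827 groups did not overlap and the HCC4006 groups did, with adjusted p of 0.647 and 0.589 in limma. The row of NFE2L2 also names AC074286.1 and spans chr2:178092322-178408564 on hg19, so its fragments cannot be assigned to one gene alone. Another row on that locus, with a lower mean, names NFE2L2 too and was not used. KEAP1, the adaptor that targets NRF2 for degradation, had 265 and 219 FPKM in resistant HCC4006, against 232 and 284 FPKM in DMSO. In HCC827 KEAP1 had 134 and 179 FPKM in resistant libraries, against 211 and 182 FPKM in DMSO, an arrangement without overlap and an adjusted p of 0.508.

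The classical antioxidant targets gave lower values in resistant HCC827 in most cases, without any gene passing the test. Of the 8 antioxidant genes above 0 in all 4 HCC827 libraries, 7 had a negative estimate, that of SRXN1 at nearly 0, and 1 a positive one, with a median of -0.72 on the log2 scale, against -0.10 over all rows above 0. In HCC4006 the same 8 genes had 5 positive and 3 negative estimates and a median of 0.09, against -0.04 over all rows. That median was -0.09 without HCC4006 DMSO library B and 0.39 without DMSO library A, where 7 estimates were positive and 1 negative. The lowest adjusted p in the class was 0.222 in HCC827 and 0.308 in HCC4006. The HCC827 median was -0.19 when resistant library A was left out and -1.0 when B was, so its size depends on which of those libraries is kept. Without library A, 5 estimates were negative and 3 positive.

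HMOX1, haem oxygenase 1, had 26.2 and 27.2 FPKM in resistant HCC827, against 71.2 and 71.3 FPKM in DMSO. The resistant and DMSO libraries were well apart, the estimate was -1.40 (SE 0.61) and the adjusted p was 0.27. That SE takes in the other line, where HMOX1 had 68.5 and 61.5 FPKM in resistant libraries, against 129 and 31.9 FPKM in DMSO. Without HCC4006 DMSO library A the HCC827 estimate had an adjusted p of 0.0113, without DMSO library B of 0.00886, and with HCC827 fitted alone of 0.0774. Over 17 alternatives it was called in 2, and the adjusted p reached 0.515 without HCC827 DMSO library B. HMOX1 was singled out after its values were seen.

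GCLM, the modifier subunit of the enzyme that limits glutathione synthesis, had 82.8 and 183 FPKM in resistant HCC827, against 219 and 419 FPKM in DMSO. In HCC4006 it had 335 and 227 FPKM in resistant libraries, against 116 and 165 FPKM in DMSO. The groups did not overlap in either line and lay in opposite order, with a difference of the changes (HCC827 minus HCC4006) of -2.29 (SE 0.71) and an adjusted p of 0.105. GCLC, the catalytic subunit of the same enzyme, had 318 and 382 FPKM in resistant HCC827, against 568 and 577 FPKM in DMSO. In HCC4006 GCLC had 347 and 278 FPKM in resistant libraries, against 589 and 206 FPKM in DMSO. GCLC groups were apart in HCC827 and overlapped in HCC4006, and neither estimate was called. Its row also names RP1-27K12.2.

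TXNRD1, thioredoxin reductase 1, was the most abundant antioxidant gene. It had 3220 and 5428 FPKM in resistant HCC827, against 6082 and 7808 FPKM in DMSO. The HCC4006 values were 5261 and 4029 FPKM in resistant libraries, against 3811 and 4107 FPKM in DMSO. The HCC827 groups did not overlap, at an adjusted p of 0.304, and the HCC4006 groups did. Another row on the locus, with a lower mean, also names TXNRD1 and was not used. TXN, thioredoxin, the substrate of that enzyme, had 3256 and 2583 FPKM in resistant HCC4006, against 1103 and 2053 FPKM in DMSO. In HCC827 TXN had 1200.3 and 2497 FPKM in resistant libraries, against 2121 and 2360.1 FPKM in DMSO. The HCC4006 groups of TXN were apart, with an adjusted p of 0.308, and those of HCC827 overlapped.

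NQO1, a quinone reductase often read as a marker of NRF2 activity, was most uneven in resistant HCC827, where its libraries were 3.76-fold apart. It had 449 and 1688 FPKM in resistant HCC827, against 2126 and 1395 FPKM in DMSO. The HCC4006 values were 2158 and 1427 FPKM in resistant libraries, against 1486 and 1633 FPKM in DMSO. Both pairs of groups overlapped. SRXN1, which restores oxidised peroxiredoxins, had 439 and 357 FPKM in resistant HCC4006, against 657 and 328 FPKM in DMSO, on a row that also names AL121758.1 and SCRT2. In HCC827 SRXN1 had 231 and 268 FPKM in resistant libraries, against 284 and 218 FPKM in DMSO. GSR, glutathione reductase, had 810.3 and 932 FPKM in resistant HCC827, against 810.1 and 665 FPKM in DMSO, and 325 and 321 FPKM in resistant HCC4006, against 434 and 385 FPKM in DMSO. SRXN1 overlapped in both lines, whereas GSR did not, and its order was opposite in them. GPX2, an epithelial glutathione peroxidase, was listed at 0 in all 4 HCC4006 libraries, and in HCC827 it had 0 and 52.6 FPKM in resistant libraries, against 69.2 and 8.15 FPKM in DMSO.

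**Figure D2:**
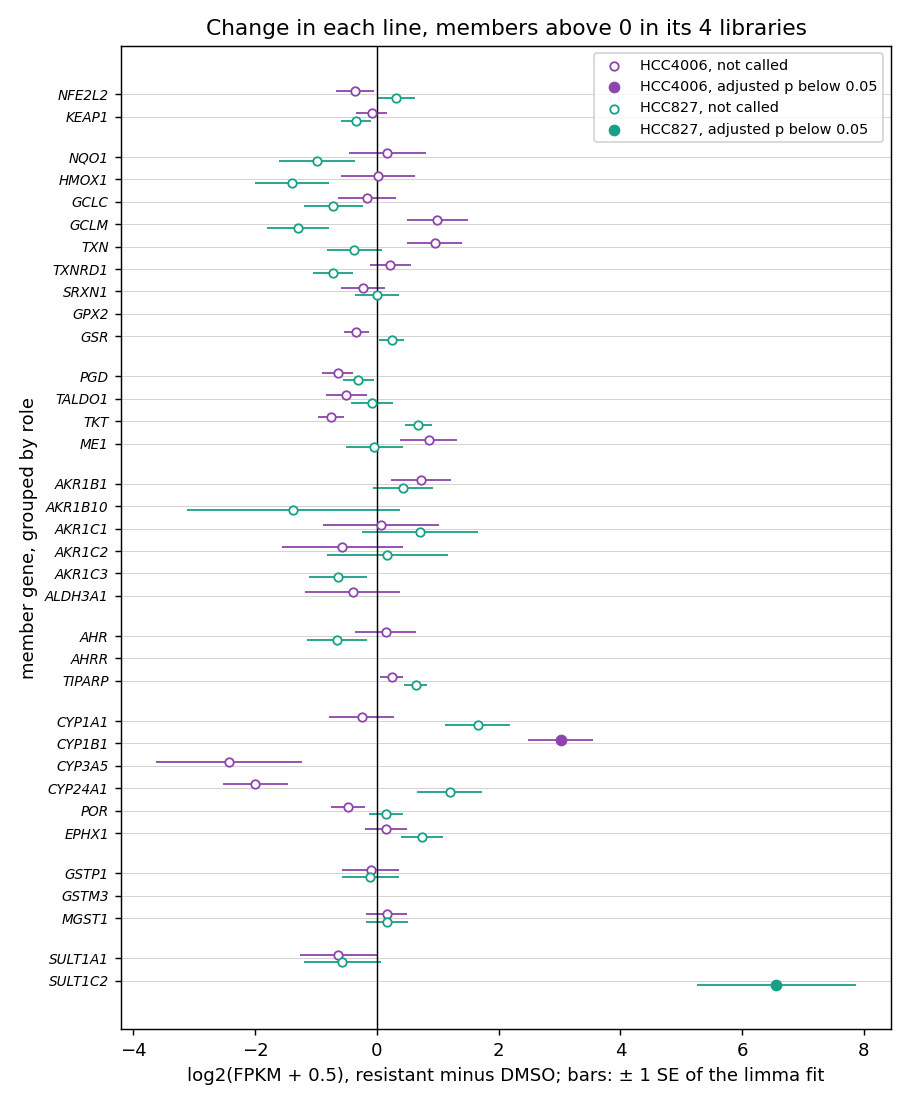
Estimated change (resistant minus DMSO, difference of log2(FPKM + 0.5)) of each gene above 0 in the 4 libraries of a line, with bars of 1 SE from limma, HCC4006 in purple and HCC827 in green, filled where the adjusted p was below 0.05. The filled points are CYP1B1 in HCC4006 at 3.02 and SULT1C2 in HCC827 at 6.56, and 7 of 8 antioxidant points of HCC827 lie left of 0.

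Among the enzymes of the pentose phosphate pathway and NADPH supply, transketolase stood out by a change that differed between the lines. TKT, transketolase of the pentose phosphate pathway (hg19 chr3:53258722-53290068), had 2204 and 2223 FPKM in resistant HCC827, against 1362 and 1398 FPKM in DMSO. In HCC4006 it had 1384 and 1364 FPKM in resistant libraries, against 2666 and 2019.7 FPKM in DMSO. The groups did not overlap in either line and lay in opposite order. The change was 0.68 (SE 0.22, adjusted p = 0.143) in HCC827 and -0.76 (SE 0.22, adjusted p = 0.097) in HCC4006, so neither was called alone. Their difference, HCC827 minus HCC4006, was 1.44 (SE 0.31), with a limma adjusted p of 0.0321 and a range of 0.0115 to 0.118 over 15 alternatives, of which 6 called it. Among the settings that did not, the adjusted p was 0.107 and 0.11 without HCC4006 resistant library A or B, 0.0503 and 0.0582 without HCC827 resistant library A or B, 0.0895 and 0.0873 without HCC827 DMSO library A or B, 0.0804 after quantile normalization and 0.118 with rows above 0 in all 8 libraries.

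Of the 34 genes tested for the difference between the lines, 4 were called (11.8%), against 6.27% of rows higher and 5.82% lower. TKT and CYP24A1 were above 0 in all 8 libraries, while CYP1B1 and AKR1C3 each had a group listed at 0. Among genes above 0 in all 8 libraries it was 2 of 26, both higher, against 3.2% of such rows called higher and 1.69% lower.

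The other enzymes of this class were not called in either line. PGD, which makes NADPH in the oxidative branch of the pathway, had 1385 and 1439 FPKM in resistant HCC4006, against 2509 and 1948 FPKM in DMSO. TALDO1, transaldolase, had 1658 and 1389 FPKM in resistant HCC4006, against 2287 and 2020.0 FPKM in DMSO. ME1, the cytosolic malic enzyme, had 203 and 146 FPKM in resistant HCC4006, against 86.1 and 105 FPKM in DMSO. Resistant libraries thus lay below DMSO libraries for PGD and TALDO1 and above them for ME1, with adjusted p of 0.218, 0.479 and 0.382. In HCC827 the groups of all 3 overlapped. PGD there had 669 and 899.8 FPKM in resistant libraries, against 869 and 1061 FPKM in DMSO, TALDO1 1063 and 1936 FPKM against 1767 and 1315 FPKM in DMSO, and ME1 93.1 and 136 FPKM against 74.3 and 181 FPKM in DMSO.

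Aldo-keto reductases, which reduce aldehydes and ketones with NADPH, ranged widely in level. AKR1B1, aldose reductase, was the most abundant and had 1195 and 1134 FPKM in resistant HCC4006, against 609.7 and 819.8 FPKM in DMSO. In HCC827 AKR1B1 had 1042 and 2466 FPKM in resistant libraries, against 873 and 1637 FPKM in DMSO. The HCC4006 groups were apart, at an adjusted p of 0.479, and the HCC827 groups overlapped. AKR1C3, which reduces steroid and prostaglandin ketones (hg19 chr10:5077548-5149878), had 44.7 and 36.4 FPKM in resistant HCC4006 and was listed at 0 in both DMSO libraries. In HCC827 it had 35.6 and 75.7 FPKM in resistant libraries, against 111 and 59.8 FPKM in DMSO, which overlapped. The 3 other rows on its locus were at 0 in all libraries.

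The remaining aldo-keto reductases were low and uneven. AKR1B10, a retinal reductase, had 9.99 and 61.4 FPKM in resistant HCC827, against 172 and 24.9 FPKM in DMSO, and in HCC4006 8.57 and 0 FPKM in resistant libraries, against 10.0 and 1.82 FPKM in DMSO. AKR1C1 had 4.65 and 11.1 FPKM in resistant HCC4006, against 18.3 and 2.40 FPKM in DMSO, and in HCC827 4.43 and 11.3 FPKM in resistant libraries, against 4.31 and 4.03 FPKM in DMSO. AKR1C2 had 2.54 and 4.16 FPKM in resistant HCC4006, against 15.6 and 1.43 FPKM in DMSO, and in HCC827 2.75 and 6.43 FPKM in resistant libraries, against 4.18 and 3.31 FPKM in DMSO. Of these 3 genes only AKR1C1 in HCC827 had groups that did not overlap. AKR1C1 and AKR1C2 are near-identical copies, so fragments may have been split between them.

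ALDH3A1, an aldehyde dehydrogenase of airway epithelium, was listed above 0 in HCC4006 only. It had 194 and 221 FPKM in resistant HCC4006, against 662 and 112 FPKM in DMSO, and was listed at 0 in all 4 HCC827 libraries. The HCC4006 groups overlapped because the DMSO libraries lay on either side of the resistant ones. Without HCC4006 DMSO library B, the lower of that pair, the HCC4006 estimate of ALDH3A1 was -1.67. Those of HMOX1, TKT and CYP24A1 were then -0.98, -0.96 and -2.68. Without DMSO library A instead, ALDH3A1 and the other estimates of its class were all positive, from 0.51 to 1.41. The antioxidant class, which holds HMOX1, then had 7 positive estimates and 1 negative, from -0.25 to 1.01. TKT and CYP24A1 stayed negative whichever library was left out, with -0.56 and -1.31 as the estimates nearest to no change.

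AHR itself was above 0 in all 8 libraries. It had 458 and 435 FPKM in resistant HCC4006, against 479 and 341 FPKM in DMSO. In HCC827 AHR had 672 and 233 FPKM in resistant libraries, against 689.8 and 567 FPKM in DMSO. Both pairs overlapped, and resistant HCC827 library B was the lowest of the 8. TIPARP, an AHR target that modifies the receptor and limits its activity, had 344 and 355 FPKM in resistant HCC827, against 206 and 245 FPKM in DMSO. In HCC4006 TIPARP had 471 and 439.8 FPKM in resistant libraries, against 399.7 and 369 FPKM in DMSO. Its resistant libraries were above the DMSO libraries in both lines, and limma gave 0.64 (SE 0.19, adjusted p = 0.123) in HCC827 and 0.24 (SE 0.19, adjusted p = 0.544) in HCC4006.

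CYP1B1, a cytochrome P450 that oxidises steroids and aromatic hydrocarbons, was called higher in both resistant lines, in HCC827 against DMSO libraries listed at 0. It had 738 and 495 FPKM in resistant HCC4006, against 125 and 44.2 FPKM in DMSO, a change of 3.02 (SE 0.54) with a limma adjusted p of 0.0161 and a range of 0.00728 to 0.171 over 16 alternatives. The 4 libraries did not overlap. The call was not made without HCC4006 resistant library A (adjusted p = 0.171) or B (0.104), without HCC827 DMSO library B (0.0525), or with HCC4006 fitted alone (0.0766). In HCC827 CYP1B1 had 296 and 185 FPKM in resistant libraries and was listed at 0 in both DMSO libraries, so no fold is given. Its locus, chr2:38150329-38408997 on hg19, is shared with 5 other rows. FAM82A1 on that locus had 53.8 and 62.1 FPKM in resistant HCC827 and was also listed at 0 in both DMSO libraries, while in HCC4006 it had 57.0 and 53.7 FPKM in resistant libraries, against 36.6 and 55.4 FPKM in DMSO. C2orf58, also on that locus, had 13.6 and 4.07 FPKM in resistant HCC827 and was listed at 0 in both DMSO libraries. Its HCC4006 values were 6.72 and 3.50 FPKM in resistant libraries, against 0.886 and 2.23 FPKM in DMSO. Whether the zeros of the shared locus and of CYP1B1 have one source was not tested.

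CYP1A1, the best known AHR target, had 95.5 and 225 FPKM in resistant HCC827, against 56.9 and 37.5 FPKM in DMSO. In HCC4006 it had 18.7 and 19.2 FPKM in resistant libraries, against 33.0 and 15.5 FPKM in DMSO. The groups were apart in HCC827, with an estimate of 1.65 (SE 0.54) and an adjusted p of 0.149, and overlapped in HCC4006. CYP1A1, TIPARP and GCLM are described at this length because of their values.

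CYP24A1, the mitochondrial enzyme that inactivates vitamin D hormone (hg19 chr20:52769987-52790512), differed between the lines in its change. It had 553 and 429.6 FPKM in resistant HCC827, against 303 and 149 FPKM in DMSO. In HCC4006 it had 93.6 and 109 FPKM in resistant libraries, against 650.2 and 252 FPKM in DMSO. Resistant libraries were all higher in HCC827 and all lower in HCC4006. The estimates were 1.19 (SE 0.53, adjusted p = 0.282) in HCC827 and -2.0 (SE 0.53, adjusted p = 0.0761) in HCC4006. The difference, HCC827 minus HCC4006, was 3.19 (SE 0.75), with an adjusted p of 0.0453 and a range of 0.0219 to 0.203 over 15 alternatives, of which 4 called it. Among the settings that did not, the adjusted p was 0.203 and 0.176 without HCC4006 resistant library A or B, 0.0847 without HCC4006 DMSO library A, 0.131 and 0.12 without HCC827 resistant library A or B, 0.0564 and 0.142 without HCC827 DMSO library A or B, 0.0532 with no filter on low values, 0.0505 with a pseudocount of 0.1 and 0.0715 with rows above 0 in all 8 libraries.

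The other phase I genes were not called. CYP3A5, a drug-oxidising P450, had 15.8 and 9.0 FPKM in resistant HCC827, against 4.05 and 0 FPKM in DMSO, and in HCC4006 2.63 and 4.58 FPKM in resistant libraries, against 46.8 and 9.24 FPKM in DMSO. Its groups were apart in both lines and in opposite order. POR, the reductase that passes electrons to microsomal P450 enzymes, had 625 and 501 FPKM in resistant HCC827, against 629 and 407 FPKM in DMSO, and in HCC4006 277 and 306 FPKM in resistant libraries, against 437 and 375 FPKM in DMSO. EPHX1, microsomal epoxide hydrolase, had 327 and 446 FPKM in resistant HCC827, against 283 and 185 FPKM in DMSO, and in HCC4006 558 and 526 FPKM in resistant libraries, against 622 and 382 FPKM in DMSO. POR groups were apart in HCC4006 and EPHX1 groups in HCC827. Of the 4 phase I genes above 0 in all 4 HCC827 libraries, 4 had a positive estimate, from 0.15 to 1.65, with a median of 0.97, against -0.10 over all rows. Without HCC827 resistant library A, or without DMSO library B, 3 were positive and 1 negative, and the median ran from 0.56 without DMSO library B to 1.37 without DMSO library A. In HCC4006 the 6 such genes had 2 positive and 4 negative estimates and a median of -0.36, with a range of -0.68 to -0.04 over the alternatives.

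**Figure D3:**
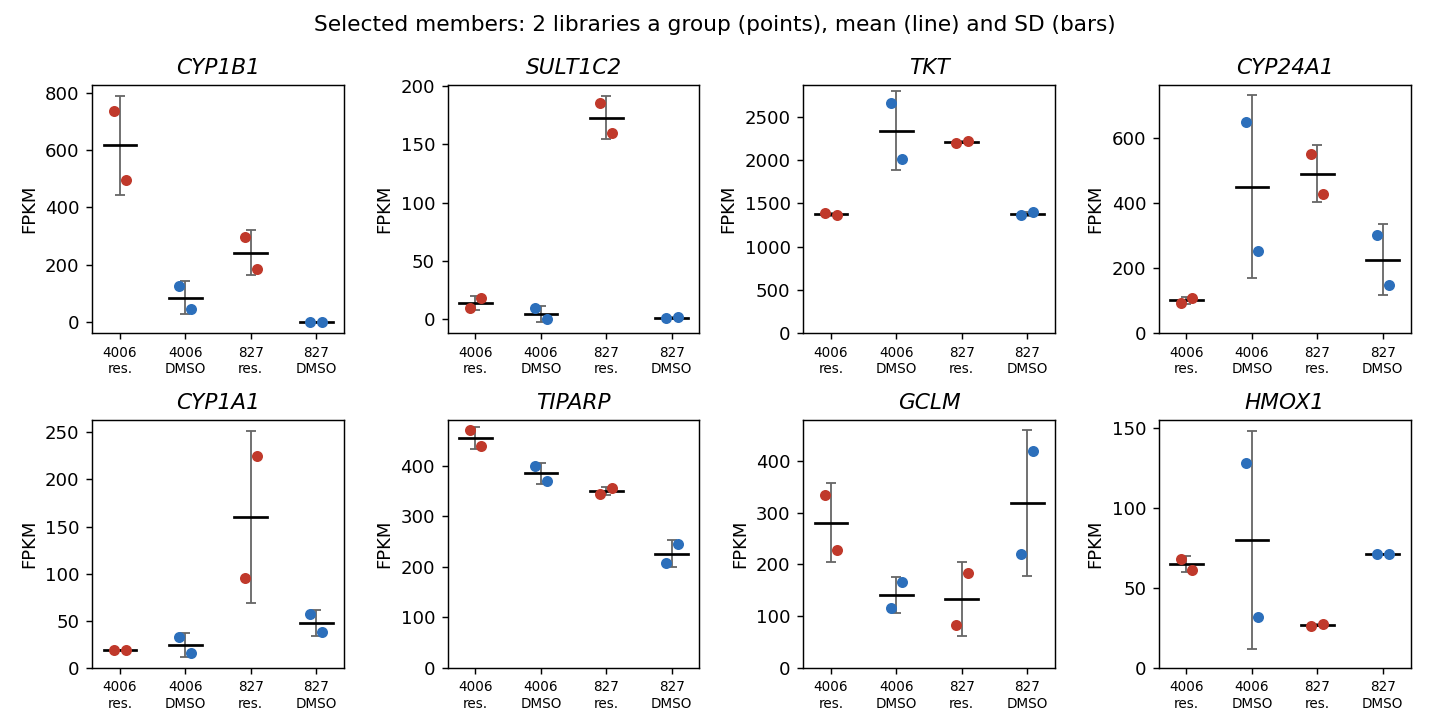
FPKM of 8 genes in the 4 groups (resistant in red, DMSO in blue), with each library as a point, the group mean as a line and the SD of 2 libraries as a bar. CYP1B1 is higher in the resistant libraries of both lines, in HCC827 against DMSO libraries listed at 0, which can be failed estimates. SULT1C2 reaches 186 and 159.6 FPKM in resistant HCC827, and TKT, CYP24A1 and GCLM lie in opposite order in the lines.

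The 2 abundant glutathione transferases were not called in either line, and GSTP1 was the higher of them in HCC827 while MGST1 was in HCC4006. GSTP1, the main glutathione S-transferase of lung epithelium, had 3716 and 8410.0 FPKM in resistant HCC827, against 8306 and 4375 FPKM in DMSO. The HCC4006 values were 804 and 689 FPKM in resistant libraries, against 836 and 765 FPKM in DMSO. Both pairs overlapped, with estimates of -0.11 (SE 0.47) and -0.10 (SE 0.47). MGST1, a membrane-bound transferase, had 2513 and 4083 FPKM in resistant HCC827, against 2431 and 3334 FPKM in DMSO, and in HCC4006 1676 and 1406 FPKM in resistant libraries, against 1159 and 1631 FPKM in DMSO. MGST1 overlapped in both lines too. GSTM3, a mu-class transferase (hg19 chr1:110198702-110318050), had 78.6 and 151 FPKM in resistant HCC827 and was listed at 0 in both DMSO libraries. In HCC4006 GSTM3 had 11.3 and 0.679 FPKM in resistant libraries and was also listed at 0 in both DMSO libraries, without being called. Of the 4 other rows on that locus, the one naming AC000032.1, GSTM2 and GSTM4 had 11.9 and 25.1 FPKM in resistant HCC827 and was listed at 0 in both DMSO libraries, and EPS8L3 had 12.3 and 18.9 FPKM there and was likewise at 0 in DMSO. In HCC4006 the row naming GSTM2 and GSTM4 had 42.5 and 52.4 FPKM in resistant libraries, against 42.7 and 28.0 FPKM in DMSO.

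SULT1C2, a cytosolic sulfotransferase (hg19 chr2:108905094-108926371), showed the largest change among the genes above 0 in the libraries of their line. It had 186 and 159.6 FPKM in resistant HCC827, against 1.07 and 1.64 FPKM in DMSO. The change was 6.56 (SE 1.31) with a limma adjusted p of 0.0305 and a range of 0.000757 to 0.162 over 16 alternatives, of which 7 called it. Among the settings that did not, the adjusted p was 0.122 and 0.12 without HCC4006 resistant library A or B, 0.137 and 0.157 without HCC827 resistant library A or B, and 0.162 and 0.152 without HCC827 DMSO library A or B. With a pseudocount of 0.1 it was 0.115 and with rows above 0 in the 4 HCC827 libraries 0.0743, whereas HCC827 fitted alone called it at 0.000882. In HCC4006 SULT1C2 had 9.90 and 18.2 FPKM in resistant libraries, against 9.73 and 0 FPKM in DMSO, and the difference between the lines had an adjusted p of 0.256. SULT1A1, the phenol sulfotransferase, had 37.7 and 60.4 FPKM in resistant HCC827, against 103 and 48.9 FPKM in DMSO, and in HCC4006 23.4 and 30.7 FPKM in resistant libraries, against 73.3 and 23.9 FPKM in DMSO. Both pairs of SULT1A1 overlapped, and its fragments may be shared with close copies.

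Groups that did not overlap were no more frequent than among all rows in HCC4006. There, 9 of 34 genes lay wholly higher in resistant libraries and 7 wholly lower, against 25.5% and 25.5% of rows. In HCC827, 12 of 34 lay wholly higher and 5 wholly lower, against 22.7% and 23% of rows. Among the 29 genes above 0 in the 4 libraries of a line, 6 lay wholly higher and 7 wholly lower in HCC4006, against 22.7% and 28.3% of such rows, and 9 wholly higher and 5 wholly lower in HCC827, against 20.2% and 26.3%. The pairs of libraries within a group were not equally close for these genes. In DMSO HCC4006, 12 of 30 genes above 0 in both libraries were at least 2-fold apart (40.0%), against 28.8% of all rows. Of the 30, 22 were higher in library A (73.3%), against 52.1% of all rows. In resistant HCC827, 11 of 32 were at least 2-fold apart (34.4%), against 24.9% of all rows. Of the 32, 25 were higher in library B and 7 in library A (21.9%), against 50.2% of all rows in A. In resistant HCC4006, 2 of 32 were at least 2-fold apart (6.25%) and in DMSO HCC827 5 of 30 (16.7%), against 6.06% and 15.8% of rows. Library A was higher there for 22 of the 32 and 18 of the 30, against 48.4% and 58.1% of rows.

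**Figure D4:**
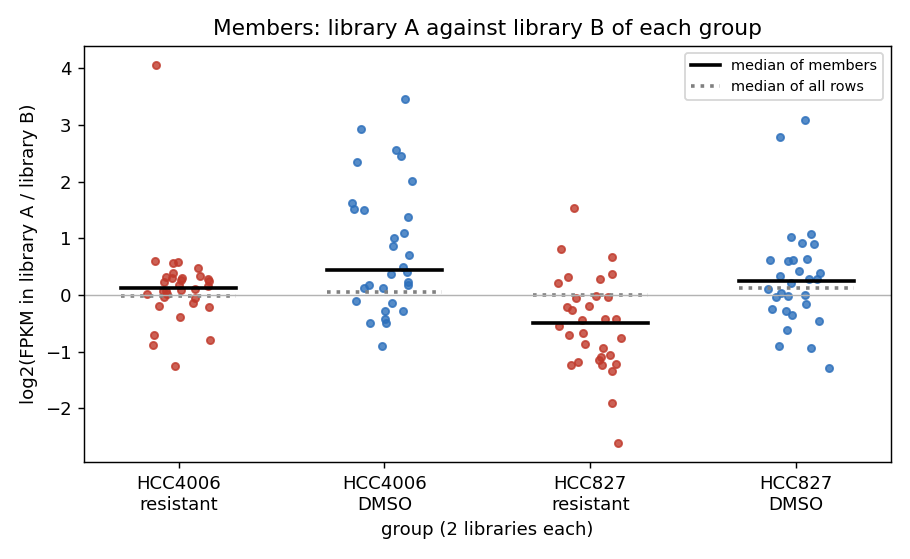
Log2 ratio of library A to library B for each gene above 0 in both libraries of a group, with the median of these genes as a solid line and that of all rows as a dotted line. The genes' median is 0.45 in DMSO HCC4006 and -0.50 in resistant HCC827, against 0.04 and 0.00 over all rows, and it is 0.13 in resistant HCC4006 and 0.25 in DMSO HCC827.

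The other genes of the same pathways were read from wider lists of 76 genes on 74 rows, of which 63 rows passed the filter. In HCC4006, 9 rows were called higher and 3 lower, against 6.72% and 3.76% of all rows, and each of the 9 had at least 1 library listed at 0. In HCC827, 4 rows were called higher, 1 of which names both GSTM2 and GSTM4, and 5 lower, against 5.93% and 2.61%. Of the 46 rows above 0 in the 4 HCC4006 libraries, 0 were called higher and 3 lower, against 1.35% and 2.87% of such rows, with a median change of -0.01 against -0.04. Of the 47 rows above 0 in the 4 HCC827 libraries, 1 was called higher and 3 lower, against 1.21% and 1.58%, with a median of 0.08 against -0.10. The wider NRF2 list alone had a median of 0.12 over 23 such genes in HCC827, where the 8 antioxidant genes had -0.72. In HCC4006 its median was -0.007 over 22 genes, where the 8 antioxidant genes had 0.09.

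In HCC4006, ALDH1A3, a retinaldehyde dehydrogenase, fell to 58.4 and 75.3 FPKM in resistant libraries, against 2108 and 1136 FPKM in DMSO (-4.53, SE 0.36, limma adjusted p = 0.000338). SULT2B1, a sterol sulfotransferase, had 6.90 and 9.72 FPKM in resistant libraries, against 50.3 and 133 FPKM in DMSO (-3.25, SE 0.49, adjusted p = 0.00744). GSTZ1, of the zeta transferase class, had 48.2 and 51.8 FPKM in resistant libraries, against 402 and 264 FPKM in DMSO (-2.69, SE 0.42, adjusted p = 0.00914). These 3 fell in the line whose epithelial marker sum was lower in resistant libraries. ALDH1A3 was also called lower in HCC827, where it was listed at 0 in both resistant libraries, against 3.12 and 3.54 FPKM in DMSO. In HCC827, ABCC2, a pump that exports glutathione and other conjugates, fell to 5.69 and 14.3 FPKM in resistant libraries, against 167 and 182 FPKM in DMSO (-4.19, SE 0.46, adjusted p = 0.00189). ALDH3A2, the fatty aldehyde dehydrogenase, fell to 232 and 250.4 FPKM in resistant libraries, against 736 and 798 FPKM in DMSO (-1.67, SE 0.23, adjusted p = 0.00602). CYP2S1, an AHR-inducible P450, had 19.0 and 10.4 FPKM in resistant libraries, against 87.5 and 56.7 FPKM in DMSO (-2.28, SE 0.48, adjusted p = 0.0392). ALDH3B1 rose to 283 and 158 FPKM in resistant HCC827, against 72.9 and 48.4 FPKM in DMSO (1.82, SE 0.40, adjusted p = 0.0465). ALDH1A3 was called in 16 of 16 alternatives and ABCC2 in 17 of 17, whereas CYP2S1 was called in 8 of 17 and ALDH3B1 in 3 of 17. SULT2B1, GSTZ1 and ALDH3A2 were each called in 14 of 17, with adjusted p up to 0.0989 for SULT2B1, 0.108 for GSTZ1 and 0.0531 for ALDH3A2.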

How the data were processed

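Polyadenylated RNA of 8 libraries was sequenced from TruSeq RNA v2 preparations, which do not mark strand, after miRNeasy extraction, per the labels' protocols. The authors deposited gene-level FPKM in 2 tables, 1 per line. Per the submitters' processing notes, TopHat 1.4.1, Cufflinks 1.3.0 and Cuffdiff were used on hg19. The annotation and options are not stated in the sources at hand. Rows above 0 had library medians of 53.6 to 59.0 FPKM, high for this unit, and whether the authors scaled the values further is unknown. Each table may have its own normalization, and changes were therefore taken within a line. The column letters A and B could not be tied to the labels' replicate numbers, and 0 per-sample columns were unmapped.

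From these values log2(FPKM + 0.5) was tested in limma 3.58.1 (R 4.3.3; lmFit, eBayes with trend) in one fit of 4 group means over 8 libraries with 4 residual degrees of freedom, on rows with a mean of at least 0.5 FPKM. Benjamini-Hochberg adjustment was over all rows, with calls at 0.05. The lines were compared by an interaction contrast. Depth is unknown, so no counting intervals are given.

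The genes and lists were chosen with earlier results of these data known. Full values were set for called genes, NFE2L2, KEAP1, AHR and the most abundant gene of each class, and, of the wider lists, up to 6 genes a line with the largest change among those called and above 0 in its 4 libraries. Alternatives changed the pseudocount, filter, scaling, fit and replicate block, or left out a library.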

Additional observations from a re-analysis of the deposited data

Results flagged for a closer look

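The changes of 8 genes differed between the lines by the interaction contrast in limma (change in HCC827 minus change in HCC4006, log2 scale), each with values above 0 in all 8 libraries. They were 2 of 26 such genes of the report's own list, both higher, and 3 higher and 3 lower of 41 rows of the wider lists. Over all such rows, 3.2% were called higher and 1.69% lower. With the fit limited to rows above 0 in all 8 libraries, 0 of the 26 genes were called. Of the 41 wider rows, 1 was then called higher and 1 lower, against 0.97% and 0.478% of rows. Among the genes of the report's own list these were TKT, with a difference of 1.44 (adjusted p = 0.0321), and CYP24A1, with 3.19 (adjusted p = 0.0453). Among the wider lists SULT2B1 differed by 3.44 (adjusted p = 0.025), GSTZ1 by 2.66 (adjusted p = 0.0381) and ALDH3B1 by 3.09 (adjusted p = 0.0186). The difference was negative for ABCC2 at -5.46 (adjusted p = 0.0028), for CYP2S1 at -3.32 (adjusted p = 0.0278) and for ALDH3A2 at -1.75 (adjusted p = 0.0199). In the line not described above for each, SULT2B1 had 36.7 and 43.4 FPKM in resistant HCC827, against 31.6 and 38.4 FPKM in DMSO, and GSTZ1 had 102 and 232 FPKM in resistant HCC827, against 166 and 148 FPKM in DMSO. In HCC4006, ABCC2 had 3.23 and 4.34 FPKM in resistant libraries, against 1.20 and 1.34 FPKM in DMSO, and CYP2S1 had 82.6 and 107 FPKM in resistant libraries, against 31.5 and 65.6 FPKM in DMSO. ALDH3B1 had 155 and 164 FPKM in resistant HCC4006, against 499.9 and 297 FPKM in DMSO, and ALDH3A2 had 499 and 407 FPKM there, against 367 and 494 FPKM in DMSO. Over 15 alternatives the difference was called in 15 for ABCC2, 10 for ALDH3B1, 9 for ALDH3A2, 8 for SULT2B1, 8 for CYP2S1, 7 for GSTZ1, 6 for TKT and 4 for CYP24A1. With 2 libraries a group, a sample standing apart within a group could not be tested.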

How the results depend on the processing

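Of 20685 rows, 1390 were called higher and 777 lower in HCC4006, 1227 and 539 in HCC827, and 1297 and 1204 in the difference between the lines. With rows above 0 in all 8 libraries these were 45 and 203, 33 and 35, and 142 and 70, with 0 of the 26 genes tested there called higher or lower in any of the 3 contrasts. At an unadjusted p below 0.05 these were 2, 6 and 4 genes, against 2212, 2234 and 2782 of 14642 rows. The genes called within a line were removed by that filter. With rows above 0 in the 4 libraries of a line, chosen after seeing the data, 73 and 196 rows were called in HCC4006 with 1 gene higher, and 39 and 43 in HCC827 with 0. Each line fitted alone gave 1 gene higher in HCC4006 and 323 rows lower in HCC827, and gives no value for the difference. Quantile normalization gave 1183 rows lower in HCC4006 and 811 in HCC827, and moved the median change of all rows to -0.15 and -0.17. The column letters were not shown to pair the libraries (correlation of A minus B between resistant and DMSO -0.043 in HCC4006 and 0.15 in HCC827, or -0.0792 and 0.207 over rows above 0 in the line). With the letter as a replicate block, 334 rows were called lower in HCC827 and, in the difference, 839 rows and 1 gene were called higher, and SULT1C2 in HCC827 (adjusted p = 0.0804), TKT (0.112) and CYP24A1 (0.0751) in the difference were not called.

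Leaving out 1 library at a time gave 1123 to 1815 rows higher and 354 to 1217 lower in HCC4006, with 1 to 3 genes higher and 0 to 4 lower. In HCC827 it gave 1043 to 1361 rows higher and 362 to 752 lower, with 1 to 3 genes higher and 0 to 1 lower. In the difference it gave 800 to 1961 rows higher and 866 to 1896 lower, with 1 to 5 genes higher and 1 to 2 lower. A lone library in a group is then assumed to vary like the other groups. The changes of the called genes above 0 in the compared libraries, and that of HMOX1 in HCC827, kept their sign in every alternative run, whereas those near 0, such as GSTP1, were not followed. The causes of these moves were not tested, apart from the fewer rows or libraries that enter. Unknown depth and 2 libraries a group limit what can be called.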
